A study of Mus musculus with 6 samples.

Results

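Macrophages form the centre of the erythroblastic islands of the fetal liver, the clusters in which erythroblasts mature. The 10 genes described here are known from these macrophages: the complement subunits C1qa, C1qb and C1qc, the lysosomal protein Cd68, the growth factor receptor Csf1r, the surface protein Adgre1 (F4/80), the mannose receptor Mrc1, the adhesion molecule Vcam1, the secreted protein Cd5l and the phosphatidylserine receptor Timd4. They were chosen by name as known macrophage genes, with earlier results of these data known, and all 10 were found among the 17463 genes of the series.

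The libraries came from C57BL/6J fetal liver cells (E14.5 in the study's account of this culture) depleted of TER119, a marker that appears on the surface during erythroid maturation. The cells then spent 30 h in Epo (erythropoietin) medium, either without added cholesterol (control, n = 3) or with 40 µM cholesterol (cholesterol, n = 3). The sample labels call the controls untreated, whereas the study's figure legend for this sequencing calls them vehicle-treated. By the study's methods TER119+ cells were then sorted, so that macrophages were not the cells aimed at, and no transgene or deletion is named for either group. The legend of the figure with this sequencing gives 3 independent experiments for its data as mean ± SD, without naming the libraries. The number of embryos or cultures behind a library is not stated, so the p-values below measure the spread between these libraries, which may be technical. The libraries carry the numbers 1 to 3 in both groups, and the meaning of these numbers is not given.

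The 6 libraries held 19826849 to 20061724 expected counts each, estimated read numbers that can be fractional, so that 3 counts corresponded to 0.148 to 0.156 CPM (counts scaled to the library size). At this depth the 10 genes together took 0.00143% to 0.0127% of a library. The erythroid genes that define the labelled cells, such as the globins and Alas2, together reached 137600 to 205800 CPM. The highest sum of the macrophage genes was 131 CPM. In such bulk libraries, fewer macrophages, less RNA per macrophage and RNA of the same genes from other cells cannot be told apart.

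In an island the macrophage holds erythroblasts by adhesion molecules, supplies iron and takes up the expelled nuclei, which it digests in its lysosomes. C1q is known to tag dying cells for uptake. The C1q subunits are encoded side by side on mouse chromosome 4 (build GRCm38.p6), C1qb at 136880126 to 136886200, C1qc at 136889801 to 136892936 and C1qa at 136895916 to 136898844. Cd5l lies on chromosome 3 at 87357881 to 87371074. Of the 10 genes, 6 had a promoter window in the RefSeq sequences (GRCm38.p6). Shown are the windows of 250 bases of C1qb (minus strand, chr4:136886201-136886450), C1qc (minus strand, chr4:136892915-136893164) and Cd5l (plus strand, chr3:87357631-87357880), since C1qb and C1qc, which are neighbours, and Cd5l differed between the conditions in opposite directions. The C1qc window reaches into the gene span given above, which ends at 136892936. Each window is written 5′ to 3′, and the capitals in C1qc mark a match to the PU.1 type ETS motif GAGGAAGT on the opposite strand. The match lies at -195 to -188, counted from the 3′ edge of the window and not from the end of the gene span.
C1qb: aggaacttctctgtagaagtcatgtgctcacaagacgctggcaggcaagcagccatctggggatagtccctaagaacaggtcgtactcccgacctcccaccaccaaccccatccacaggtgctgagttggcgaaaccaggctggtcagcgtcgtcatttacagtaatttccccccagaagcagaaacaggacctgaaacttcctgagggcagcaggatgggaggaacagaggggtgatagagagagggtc
C1qc: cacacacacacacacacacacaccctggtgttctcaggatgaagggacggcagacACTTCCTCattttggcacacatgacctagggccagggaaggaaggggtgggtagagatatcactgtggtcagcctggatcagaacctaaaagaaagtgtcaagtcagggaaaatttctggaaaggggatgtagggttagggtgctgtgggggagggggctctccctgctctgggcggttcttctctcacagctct
Cd5l: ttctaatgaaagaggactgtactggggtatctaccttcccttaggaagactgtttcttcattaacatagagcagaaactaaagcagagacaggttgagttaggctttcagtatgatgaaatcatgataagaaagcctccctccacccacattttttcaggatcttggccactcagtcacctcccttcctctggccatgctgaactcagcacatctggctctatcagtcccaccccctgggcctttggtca

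C1qc was the only one of the 6 windows that held GAGGAAGT on either strand, a sequence found in 2.44% of all 32851 windows. The sequence AGATAA, a form of the GATA motif present in 9.99% of all windows, was in none of the 6. Other forms of the GATA motif, such as TGATAA, were not searched. A repeat of AGGTCA with 4 bases between its copies, the type bound by liver X receptors (LXRs), was in none of the 6 either, and in 0.0152% of all windows. A missing match means that these letters do not occur in the window searched.

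Per length, in FPKM (counts scaled to transcript length and library size), Cd68 had the highest level of the 10 genes, with a mean of 11.7 over the 6 libraries (range 5.45 to 26.4). It was followed by C1qb at 4.998, Csf1r at 3.52, C1qc at 3.20 and Adgre1 at 2.05 FPKM. C1qa had a mean of 0.775 FPKM, Cd5l of 0.578, Mrc1 of 0.230, Vcam1 of 0.210 and Timd4 of 0.0583. For every pair of neighbours in this order the ranges over the libraries overlapped. Within libraries, Cd68 exceeded C1qb, C1qc exceeded Adgre1, Adgre1 exceeded C1qa and Vcam1 exceeded Timd4 in 6 of 6, and C1qb exceeded Csf1r and Csf1r exceeded C1qc in 5 of 6. C1qa exceeded Cd5l in 3, Cd5l exceeded Mrc1 in 4 and Mrc1 exceeded Vcam1 in 2 of 6 libraries.

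**Figure D1:**
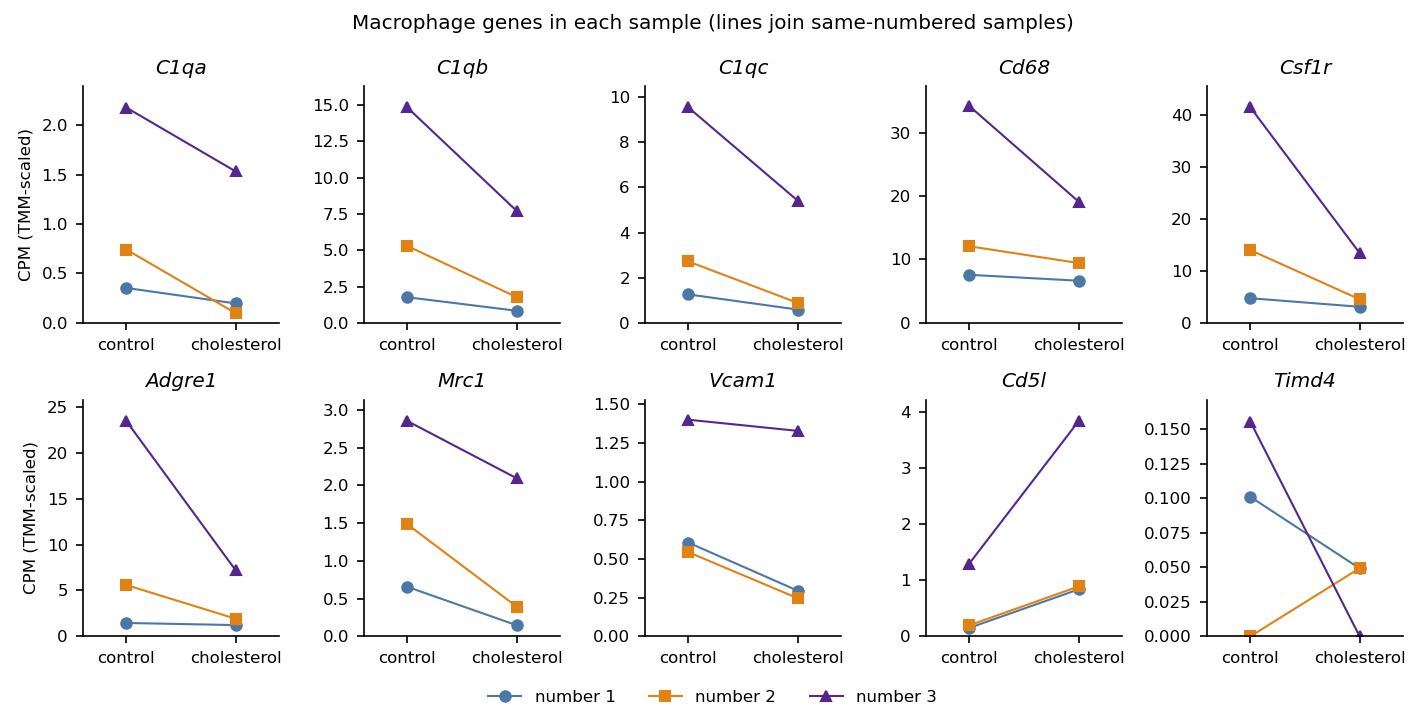
Level of each macrophage gene (y axis, CPM after TMM scaling, a separate scale for each gene) in the control and cholesterol groups, with lines joining the libraries of the same number. The libraries numbered 3 are the highest of their group for 9 of the 10 genes, 8 genes are lower with cholesterol in every pair, Cd5l is higher in every pair, and Timd4 stays at 3 counts or fewer.

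The question of the study's comparison is whether added cholesterol changes expression, and it was asked here of the macrophage genes. C1qb, Csf1r, Adgre1, C1qc and Cd68 were lower with cholesterol once the library number was taken into account, and Cd5l was higher. With condition alone in the model, none of these differences exceeded the spread between libraries. The control and cholesterol libraries overlapped for all 9 genes that passed the filter on low counts (Timd4 did not pass), whereas 4.30% of all 11277 genes tested were lower and 3.72% higher without overlap. By edgeR's quasi-likelihood test with condition alone, 0 of the 9 genes passed an adjusted p of 0.05, where 0.00887% of all genes did, and 0 passed an unadjusted p of 0.05, where 2.63% of all genes did. DESeq2 with condition alone called 0 of the 7 macrophage genes for which it gave an adjusted p (C1qa and Vcam1 had none), and 0.298% of all genes with one.

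Within pairs of libraries with the same number, 8 of the 9 genes were lower with cholesterol in all 3 pairs, compared with 20.1% of all genes. The remaining gene, Cd5l, was higher in all 3 pairs, as were 20.0% of all genes. With the number as a block, 5 of the 9 genes were called lower (5.20% of all genes were) and 1 higher (1.65% of all genes). DESeq2 with the same block called C1qb, Csf1r and Adgre1 lower (2.33% of all genes with an adjusted p) and 0 higher (0.386%), of 8 genes with an adjusted p (Vcam1 had none). Without both libraries numbered 1, the same 6 genes were called (7.14% of all genes were called in either direction). Without both libraries numbered 3, 6 of 8 genes tested were called (6.52% of all genes), with Cd68 lost and Mrc1 added. Without both libraries numbered 2, C1qb and Cd5l were called (2.58% of all genes), the latter at an adjusted p of 0.0482. With all libraries and no filter on low counts, 7 of the 10 genes were called with the block (7.25% of all genes), with Mrc1 added.

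Csf1r, the receptor through which macrophages receive their main survival signal, had 94, 283 and 800 counts in control libraries 1, 2 and 3. The same gene had 63, 92 and 263 counts in the cholesterol libraries. Control 2 and control 3 exceeded every cholesterol library, and control 1 lay between cholesterol 2 and cholesterol 3. With the block Csf1r was 2.72-fold lower with cholesterol (log2 fold change -1.44 ± 0.17 (SE), n = 3 pairs, edgeR adjusted p = 0.0023), and with condition alone the log2 fold change was -1.52 ± 0.88 (adjusted p = 0.9998). Without the libraries numbered 2 the adjusted p with the block was 0.109. Of the exon bases of Csf1r, 15.1% overlap exons of Hmgxb3 on the opposite strand, and since the strand was not stated, reads there cannot be assigned to either gene.

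Adgre1 encodes F4/80, the surface protein by which mouse tissue macrophages are usually recognised, and lies on chromosome 17 at 57358581 to 57483529. It had 29, 113 and 452 counts in the control libraries and 25, 39 and 141 counts in the cholesterol libraries. The libraries numbered 1 were close to each other, with a ratio of cholesterol to control of 0.841 (95% exact counting interval 0.472 to 1.49), while the ratio was 0.344 in pair 2 and 0.307 in pair 3. The fold change with the block was that of a 2.72-fold lower level (log2 -1.44 ± 0.20 (SE), adjusted p = 0.00104). Without the libraries numbered 2 its adjusted p was 0.0853.

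The 3 C1q subunits form one molecule. C1qb had 35, 107 and 286 counts in the control libraries and 17, 36 and 151 in the cholesterol libraries. C1qc had 25, 55 and 184 counts in the controls and 12, 18 and 106 with cholesterol. Both genes were lower in each pair, where C1qb had ratios of 0.474, 0.336 and 0.520 and C1qc had ratios of 0.468, 0.327 and 0.568. With the block C1qb was 2.22-fold lower (log2 -1.15 ± 0.17 (SE), adjusted p = 0.000227) and C1qc 2.11-fold lower (log2 -1.07 ± 0.22, adjusted p = 0.00513). C1qa, with 7, 15 and 42 counts in the controls and 4, 2 and 30 with cholesterol, did not pass the test (log2 -0.99 ± 0.43, adjusted p = 0.201). The C1qb level in FPKM was 1.35 to 1.93 times that of C1qc in the controls and 1.397 to 1.89 times with cholesterol, so the balance of these subunits overlapped between the groups. C1qb exceeded C1qc and C1qc exceeded C1qa in 6 of 6 libraries. Without the libraries numbered 2 the adjusted p of C1qc was 0.0920.

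Cd68, a lysosomal glycoprotein of phagocytes encoded on chromosome 11 at 69664213 to 69666170, had 150, 244 and 659 counts in the control libraries. With cholesterol it had 135, 191 and 374. Its ratio was 0.878 in pair 1, 0.781 in pair 2 and 0.559 in pair 3. Thus the libraries numbered 3 differed most, and Cd68 was 1.45-fold lower with the block (log2 -0.54 ± 0.12 (SE), adjusted p = 0.0135). Without the libraries numbered 3 its log2 fold change was -0.29 (adjusted p = 0.237), and without those numbered 2 the adjusted p was 0.0679.

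Mrc1 (chromosome 2 at 14229414 to 14332023), which takes up glycoproteins bearing mannose, had 13, 30 and 55 counts in the controls and 3, 8 and 41 with cholesterol. Vcam1 (chromosome 3 at 116110020 to 116129688), which binds integrins on erythroblasts, had 12, 11 and 27 counts in the controls and 6, 5 and 26 with cholesterol. Both were lower in every pair by number, but neither passed the test with the block. The log2 fold change was -1.11 ± 0.36 (SE, adjusted p = 0.0764) for Mrc1 and -0.54 ± 0.40 (adjusted p = 0.508) for Vcam1. Without the libraries numbered 3, Mrc1 did pass, at a log2 fold change of -1.97 (adjusted p = 0.00712). In pair 3 the Vcam1 ratio was 0.949 (95% interval 0.532 to 1.69). Timd4 (chromosome 11 at 46810786 to 46844333), which binds phosphatidylserine on dying cells, had 2, 0 and 3 counts in the controls and 1, 1 and 0 with cholesterol. All 6 of its values lay at or under 3 counts, so no fold change is given and a difference was not detectable at this depth.

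**Figure D2:**
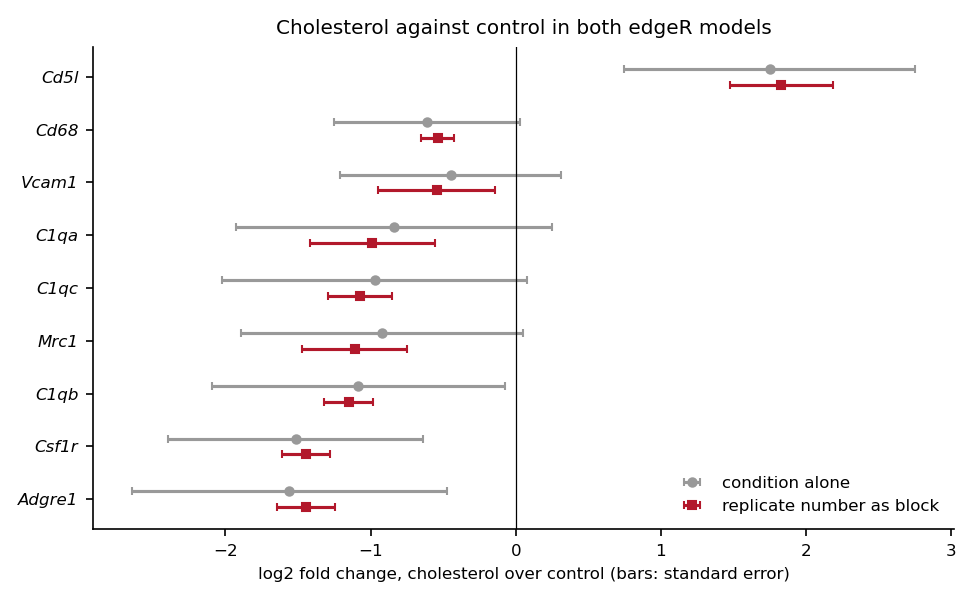
Log2 fold change of cholesterol over control (x axis) for the 9 macrophage genes that passed the filter on low counts, by edgeR with condition alone (grey circles) and with the library number as a block (red squares). Bars are standard errors. Both models place 8 genes below 0 and Cd5l above 0, and the bars of C1qb shrink from 1.009 to 0.17 with the block.

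Cd5l moved the other way. It encodes a secreted scavenger protein of tissue macrophages, also called AIM, that keeps macrophages alive and is known as a gene activated by LXRs, nuclear receptors of oxidised cholesterol. It had 3, 4 and 25 counts in the control libraries and 17, 18 and 75 in the cholesterol libraries. Every cholesterol library exceeded the control of its number, and cholesterol 1 and cholesterol 2 lay below control 3. The ratio of cholesterol to control was 5.53 in pair 1 (95% exact counting interval 1.60 to 29.4), 4.49 in pair 2 (1.48 to 18.2) and 2.96 in pair 3 (1.86 to 4.85). With the block Cd5l was 3.56-fold higher (log2 1.83 ± 0.36 (SE), adjusted p = 0.00319), and with condition alone the log2 fold change was 1.75 ± 1.002 (adjusted p = 0.9998). DESeq2 with the block gave an adjusted p of 0.0533. The control values of 3 and 4 counts limit the precision in pairs 1 and 2.

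Expressed as a share of the counts of all 10 macrophage genes, Cd5l took 0.811%, 0.464% and 0.987% in control libraries 1, 2 and 3. It took 6.01%, 4.39% and 6.21% in the cholesterol libraries. The shares of the groups did not overlap, and neither did their 95% exact binomial intervals, of which the highest control bound was 2.35% and the lowest cholesterol bound 2.62%. Set against Csf1r, there were 1.41 to 3.19 Cd5l counts per 100 Csf1r counts in the controls and 19.6 to 28.5 with cholesterol. The share of Csf1r was 25.4% to 32.8% in the controls and 21.8% to 22.4% with cholesterol, and the shares of the other 8 genes overlapped between the groups. These shares were singled out after their values had been seen, and an exact permutation test of 3 libraries against 3 cannot give a p below 0.1, so none was run. The intervals cover counting error only.

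**Figure D3:**
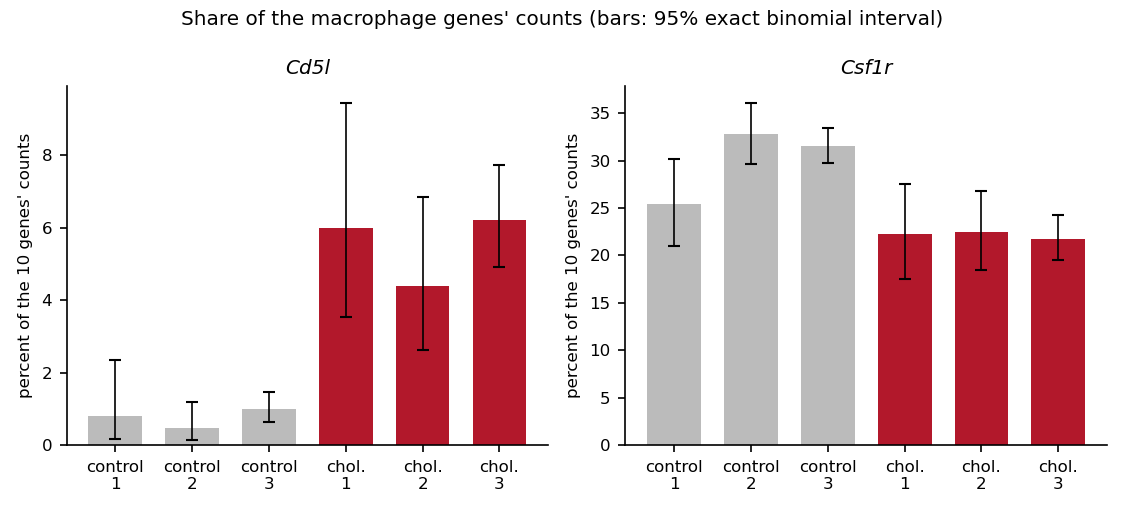
Share of Cd5l (left) and Csf1r (right) in the summed counts of the 10 macrophage genes (y axis, percent) in each control (grey) and cholesterol (red) library, with 95% exact binomial intervals as error bars. The Cd5l shares are 0.464% to 0.987% in the controls and 4.39% to 6.21% with cholesterol, whereas the Csf1r interval of control 1 overlaps those of all cholesterol libraries.

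The macrophage genes also differed between the library numbers. They summed to 18.7, 42.7 and 131 CPM in control libraries 1, 2 and 3 and to 13.9, 20.2 and 61.7 CPM in the cholesterol libraries. The libraries numbered 3 were the highest of their group for 9 of 9 genes tested, compared with 32.6% of all genes. By the F test of the number in the model with condition and number, 9 of 9 genes were called (46.3% of all genes), and 9 of 9 were higher in number 3 than in number 1 (24.3% of all genes). DESeq2's likelihood ratio test called 8 of 9 (26.7% of all genes), with Vcam1 at an adjusted p of 0.133. With at least 10 counts in every library, 5 of the genes were tested by the F test and all 5 were called (46.4% of all genes).

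Between number 3 and number 1 Adgre1 differed 10.7-fold (log2 3.41 ± 0.26 (SE), adjusted p = 5.23e-07). C1qb differed 8.76-fold (log2 3.13 ± 0.22), C1qc 8.21-fold, C1qa 6.79-fold, Csf1r 6.67-fold and Mrc1 6.53-fold. Cd5l, at 5.37-fold (log2 2.42 ± 0.41), was higher in the libraries numbered 3 like the others, although its difference between conditions was opposite. Cd68 differed 3.67-fold and Vcam1 3.07-fold (adjusted p of the F test 0.005). The order of these genes changed with single libraries. Leaving out 1 library at a time, the log2 difference of Adgre1 ran from 2.57 (without control 1) to 3.97 (without cholesterol 1), that of C1qa from 2.27 (without cholesterol 3) to 3.60 (without control 3), that of Mrc1 from 2.14 (without cholesterol 3) to 3.67 (without control 3) and that of Csf1r from 2.11 (without control 1) to 3.12 (without cholesterol 1). Number 2 exceeded number 1 past the threshold for C1qb (log2 1.41 ± 0.25), Adgre1 (1.42 ± 0.31), Csf1r (1.18 ± 0.24) and Cd68 (0.59 ± 0.16), that is 4 of 9 genes (3.96% of all genes), and did not pass for the other 5. Cd5l and Vcam1 had nearly the same level in numbers 1 and 2, with log2 differences of 0.14 ± 0.51 and -0.18 ± 0.57.

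Over the 6 libraries, 8 of the 9 genes tested followed one another, with Pearson correlations of log2 CPM from 0.836 (Csf1r and Vcam1) to 0.991 (Csf1r and Adgre1). Cd5l correlated with them at 0.318 (Csf1r) to 0.553 (Vcam1). These values describe 6 libraries that share their number and group structure. Among the 10 other genes whose levels followed the mean of the macrophage genes most closely, of 10406 genes ranked, were Rgl1, Wdfy1, Ccl2, Plac8, Hk3, Slc15a3, Entpd1 and Nucb1, with correlations of 0.9953 to 0.9996. Hk3, a hexokinase of myeloid cells, had 1.01, 2.57 and 10.1 CPM in the controls and 0.640, 1.04 and 5.01 CPM with cholesterol. Slc15a3, a lysosomal peptide transporter, had 1.47, 3.37 and 16.1 CPM in the controls and 0.739, 1.53 and 7.97 CPM with cholesterol. Wdfy1 varied less, from 10.8 to 15.9 CPM over all libraries, as did Nucb1, from 432.5 to 525.7 CPM. With the block the log2 fold changes were -0.50 (Rgl1), -0.12 (Wdfy1), -0.80 (Ccl2) and -0.76 (Plac8). They were -1.03 for Hk3, -1.04 for Slc15a3, -0.70 for Entpd1 and -0.06 for Nucb1. Since these genes were chosen for following the macrophage genes over the same libraries, their differences between the groups were not tested apart from that choice.

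Further genes of macrophage work were listed by role: 5 for adhesion, 6 for phagocytosis, 5 for digestion, 3 for iron recycling and 5 transcription factors. Of these 24 genes 20 passed the filter, and with the block 10 were lower with cholesterol (5.20% of all genes) and 0 higher (1.65% of all genes), with a median log2 fold change of -0.81 (0.01 over all genes). With condition alone 0 of the 20 were called. Between numbers 15 of the 20 differed (46.3% of all genes), and all 15 were higher in number 3 than in number 1 (24.3% of all genes). Whether the reads of these 24 genes came from macrophages or from other cells was not tested.

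Among the adhesion genes, Siglec1 (CD169, a lectin of island macrophages) was lower with the block (log2 -1.20 ± 0.15, SE), with 1.06, 4.70 and 22.4 CPM in the controls and 0.591, 1.73 and 10.1 CPM with cholesterol. Itgam (the integrin subunit CD11b) was also lower (-1.63 ± 0.11). Maea, a protein by which macrophages and erythroblasts attach, which erythroblasts also make, lay between 52.8 and 63.2 CPM in all libraries (log2 0.01 ± 0.05). Among the phagocytosis genes, the receptor kinase Axl (log2 -0.85 ± 0.17) and the scavenger receptors Stab1 (-0.77 ± 0.21) and Msr1 (-0.85 ± 0.20) were lower. Mertk, a relative of Axl, did not pass (-0.59 ± 0.36, adjusted p = 0.395).

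The lysosomal proteases Ctss (log2 -1.18 ± 0.10, SE) and Lgmn (-0.55 ± 0.08) were lower with the block, and Ctsc did not pass (-0.93 ± 0.37, adjusted p = 0.392). Dnase2a, the lysosomal nuclease that degrades the DNA of engulfed nuclei, lay between 51.9 and 59.5 CPM and did not pass (-0.07 ± 0.06). Of the iron genes the transporter Slc11a1 was lower (-1.21 ± 0.19), while the heme oxygenase Hmox1 (0.20 ± 0.11, adjusted p = 0.393) and the iron exporter Slc40a1 (-0.01 ± 0.05, adjusted p = 0.949) did not pass. Spi1, which encodes the myeloid factor PU.1, was lower (-1.10 ± 0.14), as was Maf (-1.19 ± 0.22). Nr1h3, an LXR of macrophages, did not pass (-0.63 ± 0.39, adjusted p = 0.408). Nr1h3 had 0.505, 0.742 and 1.56 CPM in the controls and 0.197, 0.395 and 1.33 CPM with cholesterol.

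Several genes that are known from resident macrophages were near the limit of detection. Vsig4 was at 0 in all 6 libraries, where 3 counts would be 0.148 to 0.156 CPM, and Spic, the transcription factor of iron-recycling macrophages, reached at most 0.204 CPM. The hemoglobin scavenger receptor Cd163 lay between 0.0985 and 0.511 CPM. Together with Timd4 these genes were too low for a comparison.

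**Figure D4:**
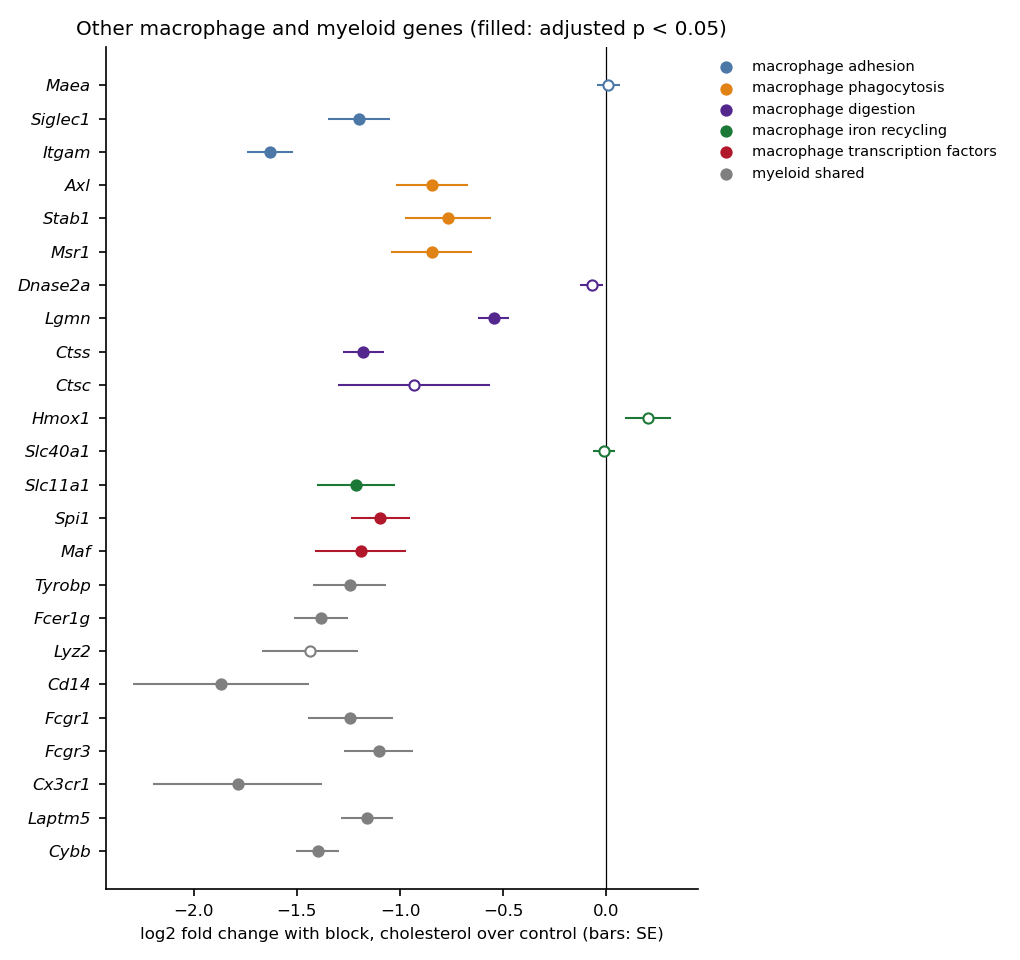
Log2 fold change of cholesterol over control with the library number as a block (x axis) for the genes of the macrophage role lists and the myeloid list that passed the test or had the 2 highest levels of their list, with standard errors as bars and colours by list. Filled points have an adjusted p under 0.05. The 18 filled points all lie below 0, and Maea, Dnase2a, Hmox1 and Slc40a1 lie close to 0 with open points.

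Markers of other cells were summed to see which moved with the macrophage genes. The 10 genes shared by myeloid cells had sums of 40.5 to 411 CPM in the controls and 25.5 to 137 CPM with cholesterol, and 8 of the 10 were lower with the block, beside 5.20% of all genes (Tyrobp, Fcer1g, Cd14, Fcgr1, Fcgr3, Cx3cr1, Laptm5 and Cybb). Lyz2, the highest of them, did not pass (log2 -1.43 ± 0.23 (SE), adjusted p = 0.115). The 10 granulocyte genes had sums of 70.6 to 677 CPM in the controls and 41.3 to 282 CPM with cholesterol, and 9 of the 10 were lower with the block, beside the same 5.20% (Mpo, Elane, Prtn3, Ctsg, Ltf, S100a8, S100a9, Camp and Ngp), among them Ngp (-1.53 ± 0.06) and S100a9 (-1.14 ± 0.06). The 3 tested genes of mast cells and basophils (Cpa3, Mcpt8 and Hdc) were lower too, again beside 5.20% of all genes, with sums over 7 genes of 3.18 to 31.9 CPM in the controls and 1.28 to 5.26 CPM with cholesterol. Thus the myeloid, granulocyte and mast cell lists moved with the macrophage genes, both between conditions within pairs and between numbers. In pair 3 the sum with cholesterol was 0.469 of the control for the macrophage genes, 0.334 for the myeloid, 0.417 for the granulocyte and 0.165 for the mast cell genes. The sums of number 3 were 7.03 times those of number 1 in the controls for the macrophage genes, 10.1 times for the myeloid, 9.58 times for the granulocyte and 10.02 times for the mast cell genes. In the cholesterol libraries the same ratios were 4.42, 5.39, 6.82 and 4.11, so that the order of the lists differed between the groups. The part of such cells in the macrophage results was not tested.

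The other lists were mixed. The 7 megakaryocyte genes had sums of 80.6 to 96.2 CPM in the controls and 78.1 to 87.2 CPM with cholesterol. With the block 1 of them, Itga2b, was lower (log2 -0.28 ± 0.06, SE), beside 5.20% of all genes. Of the 6 hepatocyte genes 0 were called with the block, where 5.20% of all genes were lower and 1.65% higher. They had sums of 121 to 355 CPM in the controls and 84.0 to 298 CPM with cholesterol, and the highest of them, Alb and Afp, had log2 fold changes of -0.05 ± 0.41 and 0.07 ± 0.36. The hepatocyte sum with cholesterol was 1.76 times the control in pair 1, 0.692 times in pair 2 and 0.841 times in pair 3. Control 3 was 2.43 times control 1, cholesterol 3 was 1.17 times cholesterol 1, and 3 of the 6 genes were called between numbers, near the 46.3% of all genes. The endothelial and stromal list had 2 genes tested (Pecam1 and Kdr), of which 0 were called with the block (5.20% of all genes lower, 1.65% higher), and Lyve1 and Col3a1 lay at 3 counts or fewer. Its sums of 1.47 to 6.43 CPM in the controls and 1.19 to 3.07 CPM with cholesterol had ratios of 0.941, 0.557 and 0.477 in pairs 1, 2 and 3, beside 0.746, 0.475 and 0.469 for the macrophage genes. Number 3 was 4.39 times number 1 in the controls and 2.22 times with cholesterol. Of the lymphoid genes 0 passed the filter. Their sums of 0.404 to 4.41 CPM in the controls and 0.591 to 1.64 CPM with cholesterol had a ratio of 1.46 in pair 1, 0.798 in pair 2 and 0.371 in pair 3, and number 3 was 10.9 times number 1 in the controls and 2.77 times with cholesterol. Their part in the macrophage results was not tested either. Of the 10 erythroid genes 9 were lower with cholesterol in all 3 pairs (20.1% of all genes), 9 were called between numbers (46.3%) and 8 were higher in number 3 than in number 1 (24.3%). With the block 3 of the 10 were lower (5.20% of all genes), Hba-a2 (log2 -0.26 ± 0.04), Hbb-bs (-0.17 ± 0.04) and Alas2 (-0.14 ± 0.04), and the near-identical globin copies share reads that the authors' counting could split between them.

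**Figure D5:**
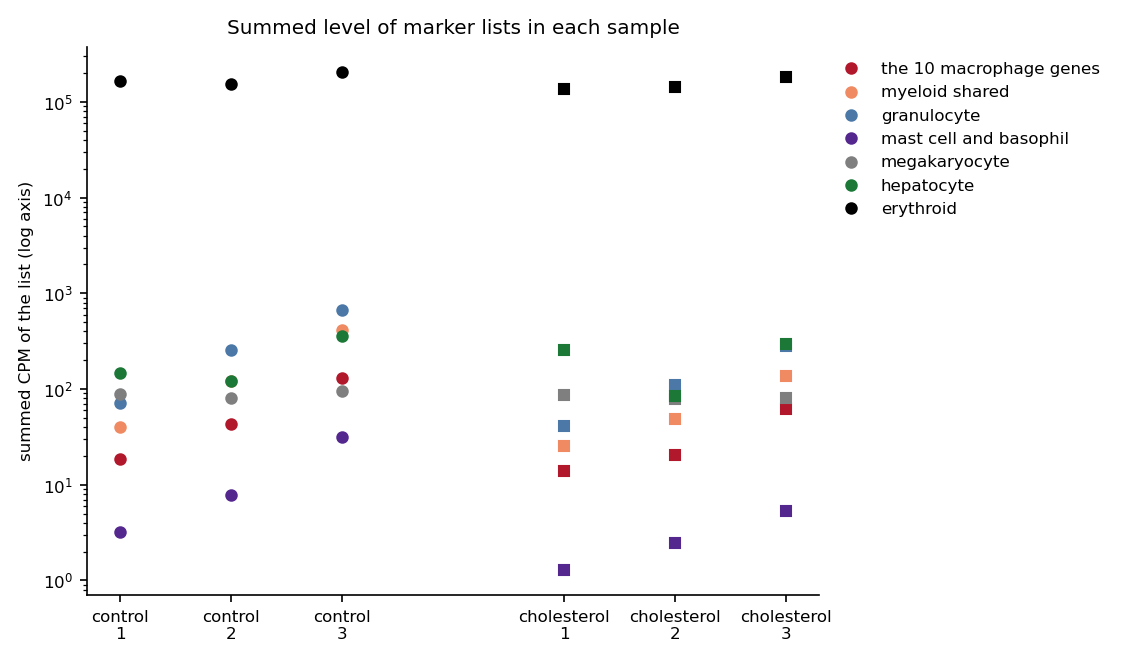
Summed level (y axis, CPM on a log scale) of the 10 macrophage genes and of the marker lists of other cells in each library (x axis), with circles for control and squares for cholesterol. The libraries numbered 3 are the highest of each group for every list shown but the megakaryocyte list, which lies between 78.1 and 96.2 CPM, and the erythroid list lies between 137600 and 205800 CPM.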

How the data were processed

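Poly(A) RNA from 3 control and 3 cholesterol libraries had been sequenced as single reads of 50 bases. The authors deposited expected counts per gene, not normalized, of which 27.9% to 29.5% in a library were not whole, and a second table whose unit is not named. The deposited values of the second table were taken as FPKM, because counts and values of 5880 genes imply lengths with a median spread of 0.28% between libraries. The submitters' processing notes name HISAT2 2.0.4, Bowtie2 2.2.5, RSEM 1.2.12, DESeq2 1.4.5 and the build GRCm38.p6, without their roles.

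The tests had been planned for whole counts, so expected counts were rounded. The test was that of edgeR 4.0.16, run in R 4.3.3 (filterByExpr with at least 10 counts in enough libraries and 15 in total, TMM normalization, robust quasi-likelihood test, Benjamini-Hochberg adjustment over 11277 genes, threshold 0.05). Of the 17463 genes, 878 were at 0 throughout. The model with condition alone was the main one, and the replicate number as a block, DESeq2 1.42.0, limma 3.58.1 on log2 FPKM with a pseudocount of 1 or 0.1, other filters and scalings, and each library left out in turn were alternatives. The numbers pair the libraries by the rule that deviations from the group means correlate above 0.1 in every pair (0.789, 0.481 and 0.855 in pairs 1, 2 and 3). Control 1 with cholesterol 2 (0.443) and control 2 with cholesterol 1 (0.269) also passed 0.1, so the deviations set numbers 1 and 2 less apart from each other than from number 3. The pairing comes from the numbers in the sample labels. Library number was tested by the F test of the same blocked model. No library was a copy of another, with a chi-square per degree of freedom of at least 8.2 between any 2 of the 6.

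Ratios within pairs and shares have exact 95% intervals from the counts. The limit of detection was taken as 3 counts. Correlations used log2(CPM + 0.5) and, for other genes, a mean of at least 1 CPM. The 10 genes, the gene lists and the motifs were chosen with earlier results of these data known. Named besides the 10 genes were the genes of the lists that passed the threshold, the 2 of highest level in each list, and the 10 most alike, of which some are not reported here. Nr1h3, Mertk, Vsig4, Spic, Cd163, Kdr, Lyve1 and Col3a1 were named after their values were seen. The edgeR and DESeq2 fits were tested on simulated data, and the other steps were not.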

Additional observations from a re-analysis of the deposited data

How the results depend on the processing

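The libraries numbered 2 and 3 set the limits of these results. With condition alone, 1 of all genes was called, and 1 to 8 when 1 library was left out. The replicate block called 772 genes, 6 of them among the 9 macrophage genes tested. With the block, 821 genes were called without the libraries numbered 1, 296 without those numbered 2 and 726 without those numbered 3, including 6, 2 and 6 macrophage genes. The replicate block with no filter called 1197 of 16509 genes and 7 of 10 macrophage genes, adding Mrc1 (adjusted p = 0.0249). The fits that left out both libraries of a number, and the block without a filter, were chosen after seeing the data. DESeq2 called 31 genes with condition alone and 289 with the replicate block, of which 3 were macrophage genes. Between replicate numbers edgeR called 5220 genes and DESeq2 3016, and with at least 10 counts in every library 5 macrophage genes were tested and 5 called (46.4% of all genes under that filter). Vcam1 lost its call between numbers in DESeq2 (log2 1.70) and without cholesterol replicate 3 (1.18).

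With condition alone and without control replicate 3, the log2 fold change of cholesterol over control was above 0 for C1qa (0.14), C1qc (0.20), Cd68 (0.25) and Vcam1 (0.11), none of which was called in that model with all libraries. Without cholesterol replicate 3 these were -2.83, -2.59, -1.15 and -1.62, the other end of the range. The same omissions (control 3, then cholesterol 3) gave 3.36 and 0.66 for Cd5l, -0.42 and -2.39 for Csf1r, -0.03 and -2.68 for Adgre1, -0.04 and -2.47 for C1qb and -0.29 and -2.59 for Mrc1. Of the other values recomputed for single genes under the alternatives, 222 kept their direction and side of the threshold, 30 passed it in addition, 2 no longer did, and 3 from DESeq2 (C1qa once, Vcam1 in both models) had no adjusted p. At counts of 3 and 4, as for Cd5l in controls 1 and 2, depth limits the precision of a ratio.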
